A study of Mus musculus with 8 samples.

Results

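Chemokines are small secreted proteins that steer the movement of leukocytes, and their receptors are G protein-coupled receptors on the cells that respond. The genes described here are those whose symbols follow the family names Ccl, Cxcl, Ccr, Cxcr and Ackr, together with *Cx3cl1*, *Cx3cr1* and *Xcl1*. The authors' table lists 60 such genes, of 22664 distinct gene symbols, on 70 of its 22206 probe sets. Of these genes 39 encode ligands and 21 encode receptors. Each gene was represented by its probe set with the highest mean signal.

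The samples were gastrocnemius (GAS) muscles of male C57/Bl6j mice. At about 10 weeks of age the mice received adeno-associated virus (AAV) of serotype 1, which enters muscle cells readily, and muscles were taken 12 weeks later, at 22 weeks of age. The AAV sh-RNA MYTHO group (MYTHO-KD, 4 arrays) received a short hairpin RNA against the transcript of *D230025D16Rik*, the gene named *Mytho*. The AAV sh-RNA scrmb group (scramble, 4 arrays) received a hairpin of scrambled sequence in the opposite leg. All muscles were thus injected and transduced, and no untouched muscle was included in the data analysed here. The U6 promoter drove both hairpins, and it is not restricted to muscle fibres. Values are signals on the log2 scale from Clariom S Mouse arrays, so that a difference of 1 is a 2-fold difference. For each group the authors' table holds an average and a standard deviation (SD), and values of single arrays were not analysed here. Whether the arrays of the groups overlapped therefore cannot be stated, and the range of 1 SD around each average is compared instead. Differences were tested on these summaries with the moderated test of limma, and p-values were adjusted by Benjamini-Hochberg over all 22206 probe sets.

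Chemokines are grouped by the spacing of their first cysteines into the CC, CXC, CX3C and XC families. Inflammatory chemokines are induced by damage or infection and recruit monocytes, neutrophils or T cells, while homeostatic chemokines place lymphocytes and other cells in tissues at rest. In injured skeletal muscle, monocytes that carry CCR2 enter from the blood and become macrophages that clear debris and take part in repair. Atypical receptors bind chemokines without activating G proteins and remove or transport them.

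The average of *D230025D16Rik* was 7.71 in MYTHO-KD and 10.02 in scramble, which left 20.2% of the scramble signal (adjusted p = 0.0138, limma). The labelled tissue was borne out by 9 skeletal muscle fibre markers, whose averages lay between 17.58 and 19.93 in scramble, close to the top of the scale. Averages of all probe sets ran from 3.18 to 19.93. A probe set is called dim here when its mean over both groups lay under the 30th percentile of all probe sets (5.715). Of the chemokine and receptor genes 22 were dim (36.7%), namely 12 of the ligands and 10 of the receptors. Of these, 7 lay under the 10th percentile (4.67), which leaves little room for a lower value, among them *Ccl5*, *Ccl12*, *Ccr1*, *Ccr4*, *Ccr6* and *Cx3cr1*. The authors' software left *Ccl5* and *Ccr6* unmarked as expressed in MYTHO-KD, and *Ccr1* in scramble.

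**Figure D1:**
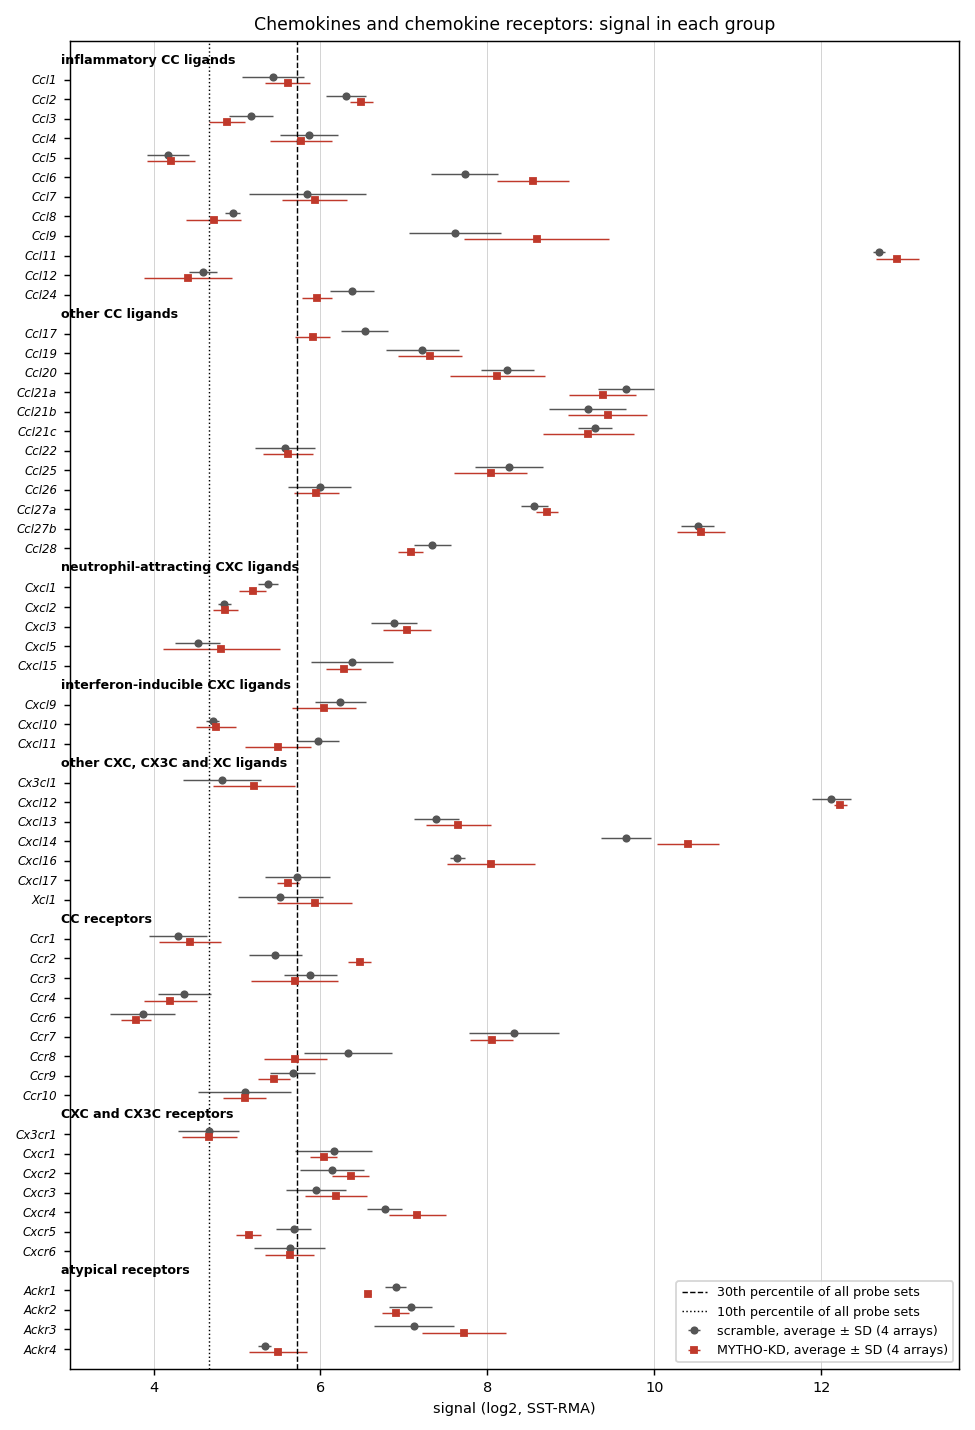
Signal of 59 chemokine and receptor genes in scramble (grey circles) and MYTHO-KD (red squares) GAS muscle, as the authors' averages with bars of 1 SD (log2, 4 arrays per group), with the 30th and 10th percentiles of all probe sets as vertical lines. Most genes lie between 4 and 9, and the red and grey ranges do not overlap for *Ccr2*, *Cxcl14*, *Ccl17*, *Cxcr5* and *Ackr1*, with only a narrow gap for *Cxcl14*.

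In MYTHO-KD muscles, *Ccr2*, *Ccl6*, *Ccl9* and *Cxcl14* were higher than in scramble and *Ccl17*, *Ccl24*, *Ccr8*, *Cxcr5*, *Cxcl11* and *Ackr1* were lower, each at an unadjusted p under 0.05. The 4 higher genes make up 6.67% of the family, against 6.48% of all probe sets, and the 6 lower genes make up 10%, against 5.52% of all probe sets. The first share is close to that of all probe sets. At the threshold of the study, 2-fold with an unadjusted p under 0.05, only *Ccr2* was called higher (1.67% of the family, against 0.86% of all probe sets) and no gene was called lower (0 of 60, against 0.257% of all probe sets). At 1.5-fold the 4 genes above were called higher (6.67%, against 3.54%), and *Ccl17* and *Ccr8* were called lower (3.33%, against 2.25%). By limma, none of the 60 genes reached an adjusted p under 0.05, against 0.275% of all probe sets, and 10 had an unadjusted p under 0.05. Ranges of 1 SD were apart for 2 higher genes (3.33%, against 4.03% of all probe sets) and for 3 lower genes (5%, against 3.96%).

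The median of the family lay close to that of all probe sets. Differences in the family ran from -0.63 to 1.01 with a median of 0.005 (log2), beside a median of -0.01 over all probe sets. Averages were higher in MYTHO-KD for 30 genes, lower for 28 and equal for *Ccr10* and *Cxcr6*. Of the 60 genes 52 differed by less than 0.5 (86.7%), as did 89.7% of all probe sets. The median difference was 0.04 for the ligands and -0.05 for the receptors. The spread between arrays was slightly larger in the family than elsewhere, with a median SD pooled over the groups of 0.332 beside 0.292 for all probe sets. The 95% interval of a difference in the family reached 0.477 to either side in the median, so that a change much smaller than 1.5-fold could not be resolved for most genes.

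**Figure D2:**
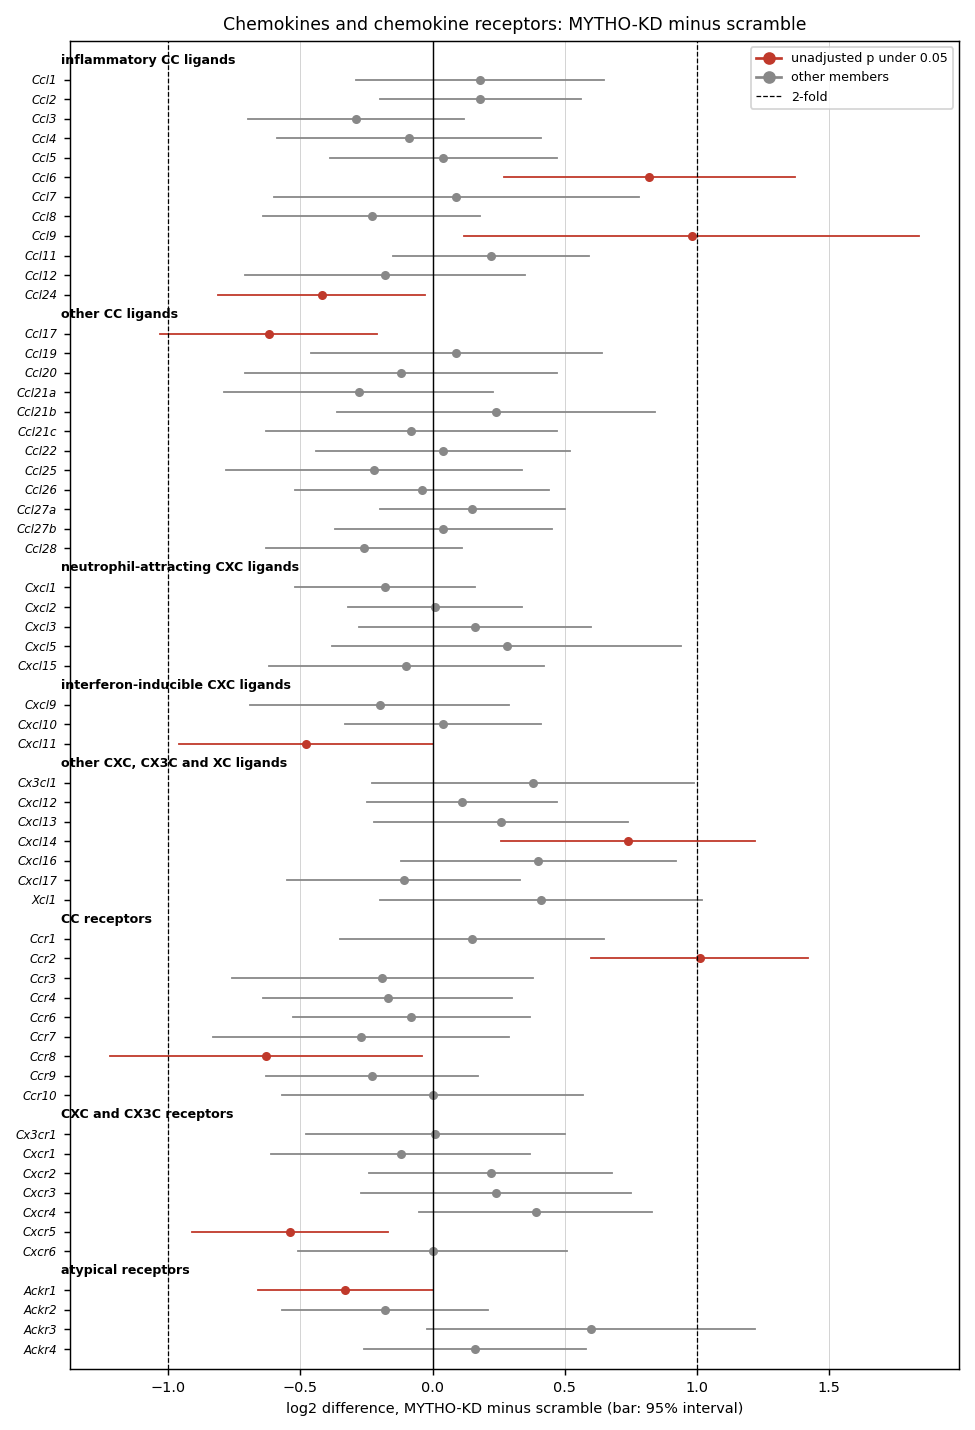
Log2 difference between MYTHO-KD and scramble for 59 of the genes, with its 95% interval from limma's moderated test, by role. Intervals in red belong to the 10 genes with an unadjusted p under 0.05, and only the point of *Ccr2* (1.01) lies past 2-fold.

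**Figure D3:**
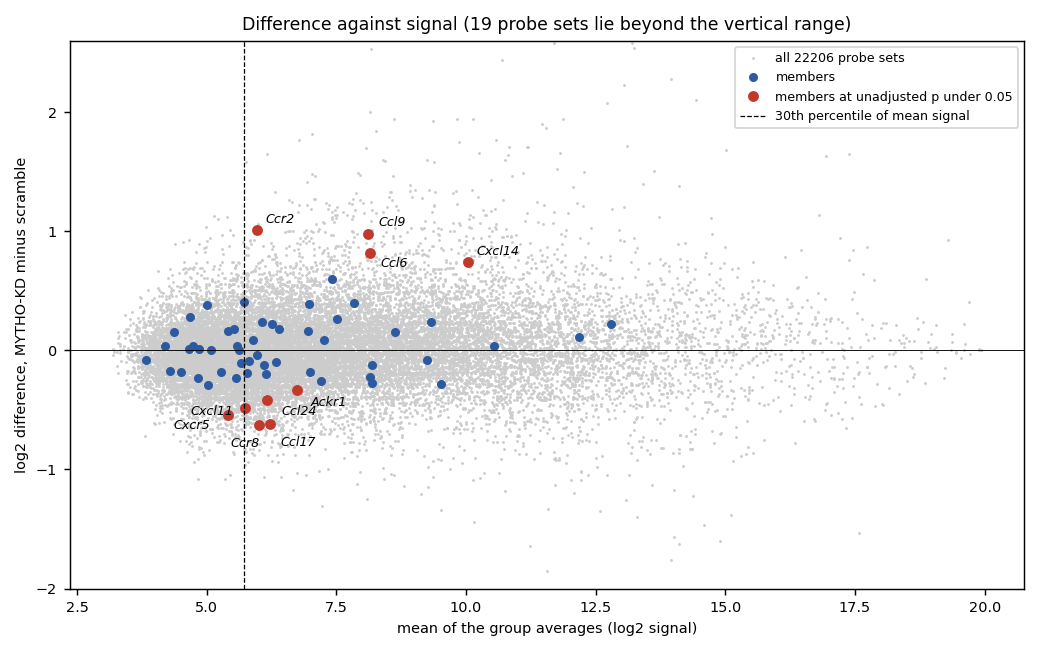
Log2 difference against mean signal (log2) for all 22206 probe sets (grey), 59 chemokine and receptor genes (blue) and those with an unadjusted p under 0.05 (red). The genes lie inside the cloud of all probe sets, and of the red ones only *Cxcr5* lies to the left of the 30th percentile of signal.

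Among the receptors, *Ccr2*, the receptor of monocytes for CCL2 and related ligands, showed the largest difference of the family. Its average was 6.47 in MYTHO-KD (SD 0.14) and 5.46 in scramble (SD 0.32), and the ranges of 1 SD were apart. The log2 difference was 1.01 (standard error 0.188, 95% interval 0.60 to 1.42, adjusted p = 0.0553, limma), or 2.01-fold. Because the averages are given to the nearest 0.01, this value sits at the 2-fold threshold within rounding. In scramble its signal was below the limit for dim probe sets and in MYTHO-KD above it. *Ccr2* has 1 probe set, on chromosome 9 from 124101950 to 124113557 (mm10).

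No ligand of CCR2 passed the threshold. *Ccl2*, the main monocyte attractant, had averages of 6.49 in MYTHO-KD and 6.31 in scramble, with a difference of 0.18 (95% interval -0.20 to 0.56). *Ccl7* had a difference of 0.09 (-0.60 to 0.78) on averages of 5.93 and 5.84. *Ccl12*, near the floor at 4.41 and 4.59, had a difference of -0.18 (-0.71 to 0.35). The upper bounds of *Ccl2* and *Ccl12* lie below the lower bound of *Ccr2*, but the difference between genes was not tested, since this needs the values of single arrays.

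*Ccr8*, found on subsets of T cells, was lower in MYTHO-KD, with averages of 5.70 (SD 0.38) and 6.33 (SD 0.53) and overlapping ranges of 1 SD. Its log2 difference was -0.63 (standard error 0.272, adjusted p = 0.385, limma). Its ligands *Ccl1* and *Ccl8* had differences of 0.18 and -0.23, on averages between 4.72 and 5.61. *Ccr7*, which guides lymphocytes and dendritic cells to lymphoid tissue, had averages of 8.05 in MYTHO-KD and 8.32 in scramble, with a 95% interval of the difference from -0.83 to 0.29. *Ccr1* (4.44 and 4.29), a receptor for inflammatory CC ligands, lay at the floor in both groups, as did *Ccr4* and *Ccr6*.

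Among the CXC and CX3C receptors, *Cxcr5*, which brings B cells and follicular T cells to lymphoid follicles, was lower in MYTHO-KD. Its averages were 5.14 (SD 0.15) in MYTHO-KD and 5.68 (SD 0.21) in scramble, so that the ranges of 1 SD were apart while both averages were dim. The difference was -0.54 (standard error 0.168, adjusted p = 0.216, limma). Its ligand *Cxcl13* had a difference of 0.26 (95% interval -0.22 to 0.74) on averages of 7.65 and 7.39.

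*Cxcr4*, the receptor of CXCL12 on many leukocytes and progenitor cells, did not pass the threshold. Its averages were 7.16 in MYTHO-KD and 6.77 in scramble, with a difference of 0.39 (-0.05 to 0.83). *Ackr3*, an atypical receptor that takes up the same ligand, had averages of 7.72 and 7.12 and a difference of 0.60 (-0.02 to 1.22). *Cxcl12* itself had a signal of 12.23 (SD 0.08) in MYTHO-KD and 12.12 (SD 0.23) in scramble. Its difference was 0.11 (standard error 0.166, 95% interval -0.25 to 0.47, adjusted p = 0.859, limma).

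*Cx3cr1*, the fractalkine receptor of monocytes and resident macrophages, lay near the floor at 4.67 and 4.66, and its ligand *Cx3cl1* had a difference of 0.38 (-0.23 to 0.99). The neutrophil receptors *Cxcr1* and *Cxcr2* had differences of -0.12 and 0.22, and *Cxcr3* of activated T cells had 0.24. None of these passed the threshold.

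*Ackr1*, an atypical receptor of venular endothelium and red cells, had averages of 6.57 (SD 0.04) in MYTHO-KD and 6.90 (SD 0.13) in scramble. The difference of -0.33 was small, but the SDs were small as well and the ranges of 1 SD were apart (standard error 0.149, adjusted p = 0.411, limma). *Ackr2* and *Ackr4*, both scavenging receptors for CC chemokines, had differences of -0.18 and 0.16 and did not pass the threshold.

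Among the inflammatory CC ligands, which attract mostly myeloid cells and activated T cells, *Ccl6* and *Ccl9* were higher in MYTHO-KD. Both are ligands of CCR1 that macrophages and other myeloid cells make. The average of *Ccl6* was 8.55 in MYTHO-KD (SD 0.43) and 7.73 in scramble (SD 0.40), a log2 difference of 0.82 (standard error 0.252, 95% interval 0.27 to 1.37, adjusted p = 0.211, limma). The average of *Ccl9* was 8.59 in MYTHO-KD (SD 0.87) and 7.61 in scramble (SD 0.55), a difference of 0.98 (standard error 0.392, 95% interval 0.12 to 1.84, adjusted p = 0.345, limma). For both genes the ranges of 1 SD overlapped. Without moderation of the variances *Ccl9* had an unadjusted p of 0.106. Their receptor *Ccr1* had a difference of 0.15 (-0.35 to 0.65) at the floor.

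*Ccl6* and *Ccl9* are direct neighbours on chromosome 11, 9.2 kb apart. *Ccl9* lies from 83572917 to 83578636 and *Ccl6* from 83587882 to 83593087 (mm10). Since these neighbours were both higher, their promoter windows are shown, with the window of *Cxcl14* beside them for the remaining ligand that was higher. The windows come from RefSeq on GRCm38.p6, the build mm10, and hold 250 bases before and 50 bases from the annotated start, on the gene's strand. The windows are chr11:83593038-83593337 for *Ccl6* and chr11:83578587-83578886 for *Ccl9*, both read on the minus strand, and chr13:56296502-56296801 for *Cxcl14*, also on the minus strand. Capitals mark the stretch that a local alignment pairs between *Ccl6* and *Ccl9*, and in *Cxcl14* a match to the core of the interferon-stimulated response element:
Ccl6: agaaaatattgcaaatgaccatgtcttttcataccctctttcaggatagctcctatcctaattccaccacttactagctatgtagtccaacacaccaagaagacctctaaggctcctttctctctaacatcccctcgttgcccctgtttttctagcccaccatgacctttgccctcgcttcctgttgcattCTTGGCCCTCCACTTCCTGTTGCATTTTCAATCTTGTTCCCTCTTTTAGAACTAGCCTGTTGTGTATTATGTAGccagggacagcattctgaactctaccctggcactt
Ccl9: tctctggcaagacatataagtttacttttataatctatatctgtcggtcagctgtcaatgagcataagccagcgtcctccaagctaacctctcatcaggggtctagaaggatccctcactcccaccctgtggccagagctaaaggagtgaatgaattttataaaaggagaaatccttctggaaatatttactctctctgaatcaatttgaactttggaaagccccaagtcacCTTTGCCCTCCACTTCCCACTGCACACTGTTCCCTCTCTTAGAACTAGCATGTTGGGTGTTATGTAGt
Cxcl14: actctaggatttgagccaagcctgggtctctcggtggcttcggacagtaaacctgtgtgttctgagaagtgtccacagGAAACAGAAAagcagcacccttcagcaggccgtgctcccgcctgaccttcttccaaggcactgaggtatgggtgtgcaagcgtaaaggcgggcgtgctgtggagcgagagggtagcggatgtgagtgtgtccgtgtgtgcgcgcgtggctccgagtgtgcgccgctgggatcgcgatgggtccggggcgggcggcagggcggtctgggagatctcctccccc

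The paired stretch spans 74 bases in *Ccl6* and 67 in *Ccl9*, with 58 of 74 aligned positions identical (78.4%). Windows were held for 44 of the 60 genes, and among the 946 pairs of these windows the alignment score of *Ccl6* with *Ccl9* ranked 5. The pairs ahead of it were *Ccl27a* with *Ccl27b* and the pairs among *Cxcl1*, *Cxcl2* and *Cxcl3*, which are duplicated genes without a difference past the threshold here. The stretch holds GGAAGT on the opposite strand, a core motif of ETS factors, 48 bases before the start of *Ccl6* and 7 bases before that of *Ccl9*. Searched on both strands, this motif was present in 24.1% of 27025 promoters, taking 1 window per gene, and in 40.9% of the 44 family windows. The NF-kB motif, searched on both strands as GGG and TTTCC with any 2 bases between them, was found on the opposite strand 35 bases before the start of *Ccl9* and in 13.6% of the family windows, against 1.62% of all promoters. The core of the interferon-stimulated response element, searched on both strands as GAAA and GAAA with any 2 bases between them, was found 172 bases before the start of *Cxcl14* and in 6.82% of the family windows, against 3.49% of all. The *Ccl9* window also held TGANTCA of AP-1 on both strands, 53 bases before the start (13.6% of the family, 7.93% of all). It held TATAAA, the letters of a TATA box, 92 bases before the start (25% of the family, 8.88% of all). These letters were searched on the gene's strand without regard to position, so the match is not called a TATA box. The matches in the *Ccl9* window do not overlap each other, and the *Ccr2* window held none of these letters. Such matches describe the sequence and were not tested as binding sites. Of the 44 family windows, 18 held the ETS motif, 6 that of NF-kB and 6 that of AP-1. The interferon element was held by 3 and TATAAA by 11. Windows of duplicated genes can share sequence, so they are not independent, and no enrichment was tested.

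*Ccl24*, an eosinophil attractant made by macrophages, was lower with averages of 5.96 (SD 0.18) in MYTHO-KD and 6.38 (SD 0.26) in scramble. Its difference was -0.42 (standard error 0.180, adjusted p = 0.385, limma). *Ccl11*, another eosinophil attractant, had averages of 12.91 (SD 0.26) and 12.69 (SD 0.07), far above the floor. Its difference of 0.22 did not pass (standard error 0.171, 95% interval -0.15 to 0.59, adjusted p = 0.672, limma). Their receptor *Ccr3* had a difference of -0.19 (-0.76 to 0.38). *Ccl3*, *Ccl4* and *Ccl5*, attractants of macrophages and T cells, had differences of -0.29, -0.09 and 0.04 on averages between 4.17 and 5.86.

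Among the homeostatic and other CC ligands, *Ccl17*, which attracts T cells through CCR4, was lower in MYTHO-KD. Its averages were 5.91 (SD 0.21) and 6.53 (SD 0.28), the ranges of 1 SD were apart, and the log2 difference was -0.62 (standard error 0.188, 95% interval -1.03 to -0.21, adjusted p = 0.207, limma). *Ccl22*, the other ligand of CCR4, had a difference of 0.04 (-0.44 to 0.52), and *Ccr4* itself lay at the floor. *Ccl21a*, a ligand of CCR7, had averages of 9.38 (SD 0.40) and 9.66 (SD 0.34) and a difference of -0.28 (standard error 0.234, adjusted p = 0.705, limma). *Ccl27b*, a copy of the gene of a chemokine of the skin, had averages of 10.56 (SD 0.29) and 10.52 (SD 0.20) and a difference of 0.04 (standard error 0.189, adjusted p = 0.967, limma).

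The genes *Ccl19*, *Ccl21a*, *Ccl21b*, *Ccl21c* and *Ccl27b* belong to nearly identical copies, and the probe set used for each names other genes as well, so that these signals are uncertain. *Ccl19* has 6 probe sets, most of which carry its symbol alone, and their differences ran from -0.49 to 0.09, with 1 at an unadjusted p under 0.05. The probe set used for *Ccl19* (0.09) is the only one above 0, while all that carry its symbol alone were lower in MYTHO-KD. The one at an unadjusted p under 0.05 was the lowest (-0.49), at a dim signal. The 4 probe sets of *Ccl27b* hold 3 different sets of values. The position given for *Ccl21b* does not overlap its RefSeq entry, while those of the other 56 genes placed on chromosomes do.

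Among the CXC ligands, *Cxcl14* was higher in MYTHO-KD. This chemokine is expressed in epithelia and connective tissue. Its averages were 10.40 (SD 0.37) in MYTHO-KD and 9.66 (SD 0.30) in scramble, and the ranges of 1 SD were apart. The difference was 0.74 (standard error 0.221, 95% interval 0.26 to 1.22, adjusted p = 0.200, limma), or 1.67-fold. The gene lies on chromosome 13 from 56288643 to 56296551 (mm10). *Cxcl16*, a transmembrane chemokine and scavenger receptor of macrophages, had averages of 8.04 (SD 0.53) and 7.64 (SD 0.09) and a difference of 0.40 (-0.12 to 0.92). Its receptor *Cxcr6* had equal averages of 5.63. The lymphocyte attractant *Xcl1* had a difference of 0.41 (-0.20 to 1.02).

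Of the interferon-inducible ligands of CXCR3, *Cxcl11* was lower, with averages of 5.49 (SD 0.40) and 5.97 (SD 0.25) and a difference of -0.48 (standard error 0.219, adjusted p = 0.415, limma). *Cxcl9* had a difference of -0.20 (-0.69 to 0.29), and *Cxcl10* one of 0.04 (-0.33 to 0.41) at 4.75 and 4.71. The 5 neutrophil-attracting ligands *Cxcl1*, *Cxcl2*, *Cxcl3*, *Cxcl5* and *Cxcl15* had differences between -0.18 and 0.28 with a median of 0.01, and none passed the threshold. Of these 5 genes, *Cxcl1*, *Cxcl2* and *Cxcl5* were dim.

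In none of 30 listed pairs of a ligand with its receptor did both genes pass. By the same rule 6.48% of all probe sets were higher and 5.52% lower. At these shares few pairs would pass by both genes, so nothing is read from this count. The list does not hold the pair of *Cxcl11* with *Cxcr3*, of which the receptor did not pass either. *Ccl6* and *Ccl9* were higher with *Ccr1* at the floor, and *Ccr2* was higher beside ligands that did not pass. *Ccl17* was lower with *Ccr4* at the floor. Whether a ligand and its receptor differed from each other was not tested.

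Many of these genes lie in genomic clusters that arose by duplication. When neighbours within 500 kb were joined, 36 of the 57 genes placed on chromosomes fell into 10 clusters. On chromosome 11 from 82035571 to 82305690, none of *Ccl2*, *Ccl7*, *Ccl11*, *Ccl12*, *Ccl8* and *Ccl1* passed the threshold. On the same chromosome from 83525778 to 83664683, *Ccl9* and *Ccl6* were higher while *Ccl5*, *Ccl3* and *Ccl4* to either side did not pass. On chromosome 9, *Ccr2* was higher, while *Ccr9*, *Cxcr6*, *Ccr1* and *Ccr3* of the same cluster did not pass. In the cluster of *Cxcl9*, *Cxcl10* and *Cxcl11* on chromosome 5, only *Cxcl11* passed. Whether neighbours differed from each other was not tested.

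**Figure D4:**
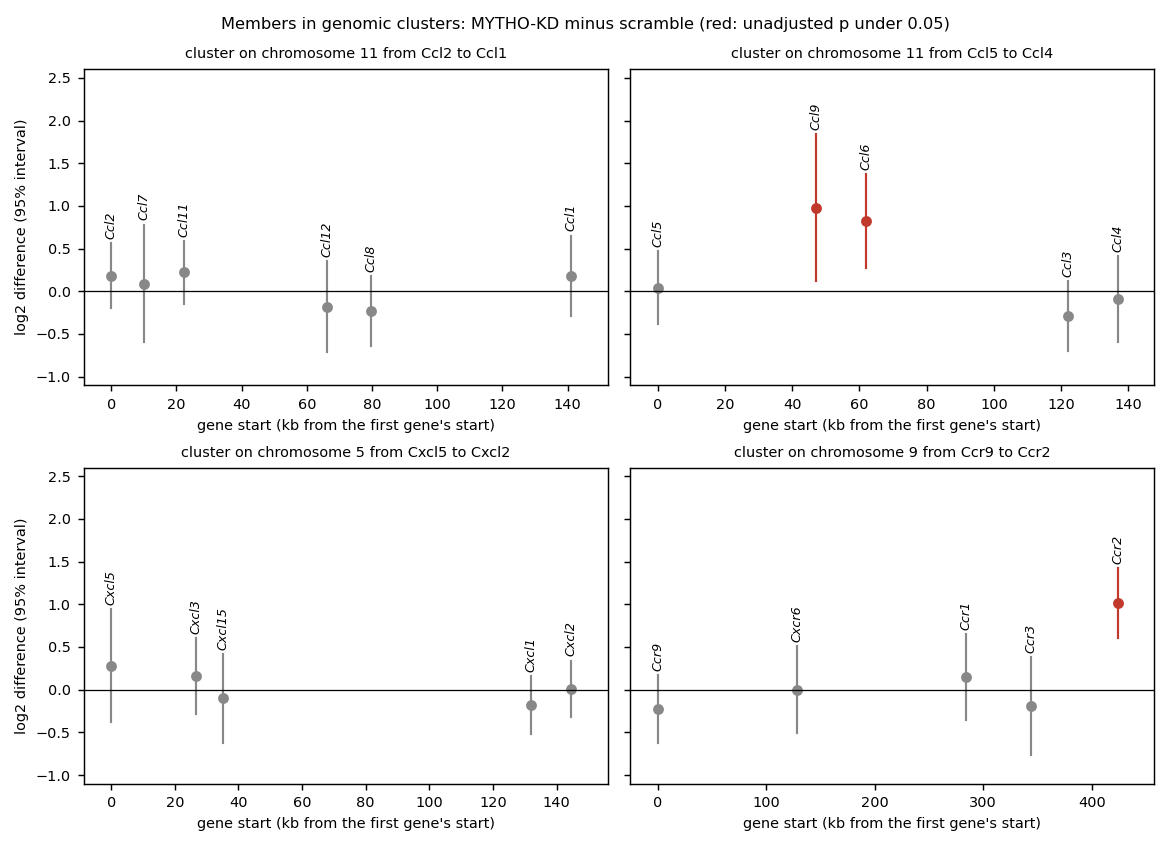
Log2 difference between MYTHO-KD and scramble, with its 95% interval, for genes of the 4 clusters with at least 5 genes, by the distance of each gene's start from that of the first gene (kb). Genes with an unadjusted p under 0.05 are red: *Ccl9* (0.98) and *Ccl6* (0.82) stand side by side, and *Ccr2* (1.01) stands alone among its neighbours.

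Other genes of the chemokine system were examined in 3 lists. Of 12 further members, such as the platelet chemokines *Pf4* and *Ppbp*, scavenging receptors, shedding enzymes and MIF with its receptor, 3 were higher and 1 was lower at an unadjusted p under 0.05. Over all probe sets 6.48% were higher and 5.52% lower by the same rule, and nothing particular to the 3 lists is read from their counts. *Cd74*, the receptor of MIF and the invariant chain of MHC class II, was higher with averages of 12.03 (SD 0.46) and 10.32 (SD 0.63), a difference of 1.71 (adjusted p = 0.0509, limma). *Cmklr1*, the chemerin receptor of macrophages, was higher by 1.14 (adjusted p = 0.167), and *Adam17*, which sheds CX3CL1 and CXCL16 from the cell surface among other proteins, by 0.68 (adjusted p = 0.300). *Ccrl2*, an atypical receptor that presents chemerin, was lower, with a difference of -0.85 (adjusted p = 0.204).

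Of 29 genes of receptor signalling, 3 were higher (*Prkcd*, *Elmo1* and *Rgs18*, with differences of 0.53, 0.57 and 0.56) and *Rac1* was lower with -0.37. Of 18 inducers of chemokine genes, *Csf1*, the growth factor of macrophages (0.83), and *Nfkb2*, a subunit of NF-kB (0.81), were higher, and *Il6* was lower (-0.73) at a dim signal. *Tnf* lay at the floor with 3.90 and 3.97, and *Il1b* (-0.09) and *Ifng* (-0.42) did not pass. The medians of the 3 lists were 0.14, 0.06 and 0.06.

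Cell type markers were read beside these results, since array signals of whole muscle hold RNA of all cell types, and more cells of a type cannot be told apart from more RNA per cell. The counts of each marker list stand beside 6.48% of all probe sets higher and 5.52% lower at an unadjusted p under 0.05. Among probe sets that were not dim, 8.24% were higher and 6.25% lower. All 15 macrophage markers had higher averages in MYTHO-KD with a median difference of 0.73, and 9 had an unadjusted p under 0.05. They were led by *Cd68* (2.53, adjusted p = 0.0182), *Lyz2* (1.94, adjusted p = 0.0277) and *C1qb* (1.27, adjusted p = 0.0754). Their averages ran from 4.84 to 9.56 in scramble and from 5.26 to 11.11 in MYTHO-KD, and 2 of the 15 were dim. Of 8 monocyte markers 7 had higher averages, with a median of 0.105, and *Fn1* (1.35), which fibroblasts also express, and *Itgam* (0.49) passed the threshold. *Ly6c2*, the marker of the inflammatory monocytes that carry CCR2, had a difference of 0.28 (averages of 10.30 and 10.02) and did not pass. The 9 macrophage markers past the threshold were higher together with *Ccr2*, *Ccl6* and *Ccl9*, and their part in those differences was not tested.

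All 9 markers of fibro-adipogenic progenitors and fibroblasts had higher averages (median 0.72), and 5 passed, among them *Lum* (1.49) and *Col3a1* (1.43). These 5 were higher together with *Cxcl14*, and their part in its difference was not tested. The 9 endothelial markers also had higher averages (median 0.37, 3 past the threshold), while *Ackr1* of venular endothelium was lower.

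None of 9 T cell markers (median -0.17) or 7 B cell markers (median -0.11) passed, and 5 in each list were dim. None of 8 neutrophil markers (median -0.10) passed, with 6 dim, nor any of the 8 mast cell and eosinophil markers (median -0.175). All 8 natural killer cell markers were dim, and *Klrb1c* was lower (-0.72). Of 10 dendritic cell markers 3 passed, all of them MHC class II genes that macrophages also express. The part of these cells in the differences of *Cxcr5*, *Ccr8* and *Ccl17* was not tested. None of 6 Schwann cell markers (median -0.06) or 6 satellite cell markers (median 0.015) passed, and of the 9 muscle fibre markers *Mb* (0.93) and *Myh1* (0.59) were higher. The fibre markers *Acta1*, *Myh4* and *Atp2a1* lay at the top of the scale in both groups (19.93, SD 0), where an increase could not show.

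**Figure D5:**
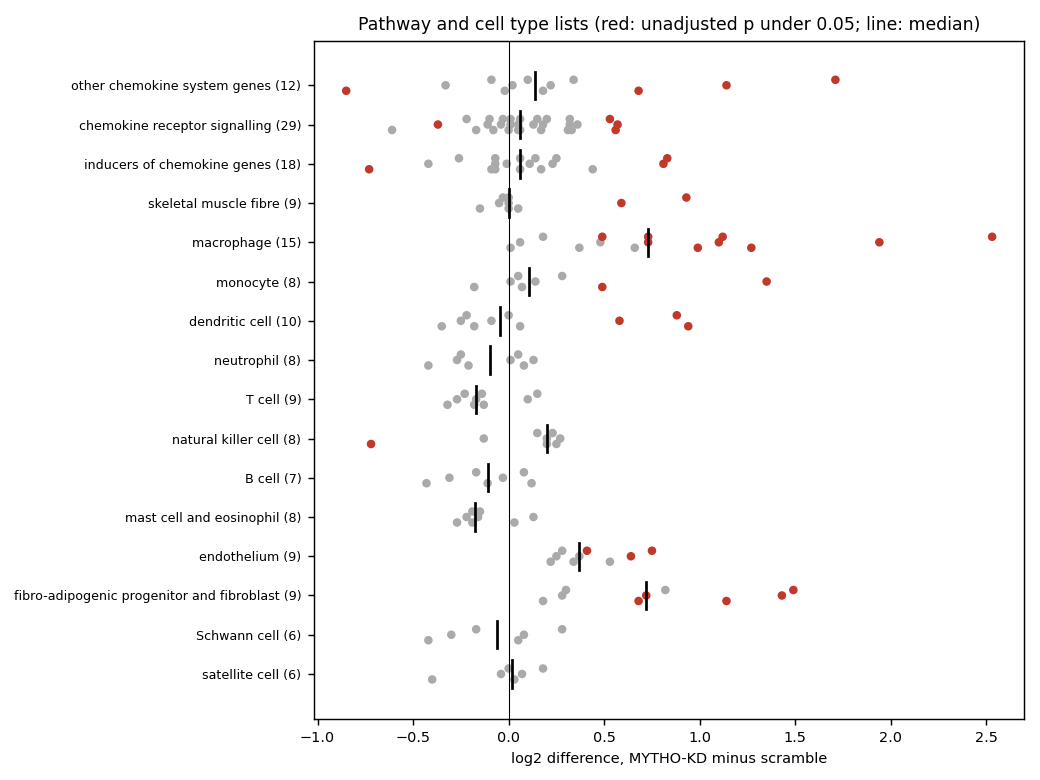
Log2 difference between MYTHO-KD and scramble for each gene (point) of the 3 pathway lists and 13 cell type lists, with the number of genes in brackets, the median as a black line and genes with an unadjusted p under 0.05 in red. The macrophage (median 0.73) and fibroblast (median 0.72) lists lie wholly to the right of 0, while the T cell list has a median of -0.17.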

How the data were processed

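Total RNA of GAS muscles was measured on Clariom S Mouse arrays. Per the paper's methods, the authors used the Transcriptome Analysis Console 4.0.1 and its SST-RMA summary, while the submitters' processing notes name the Affymetrix Expression Console and RMA. The build mm10 is named in these notes and, per the file headers, in the annotation. The deposited table holds log2 averages, SDs and flags of expression per group, and 0 columns of single arrays. Its fold changes, p-values and false discovery rates come from the authors' own comparison and were not used. SST-RMA rescales the signal, which affects the size of differences. The kind of average was not given in the sources used here. If it is not a plain mean, p-values computed from it may be too low, by an amount that was not tested.

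Group variances were averaged for each probe set (residual degrees of freedom 6), and squeezeVar moderated them, from limma 3.58.1 in R 4.3.3 (prior SD 0.284, prior degrees of freedom 5.85). Tests were two-sided and adjusted by Benjamini-Hochberg over 22206 probe sets, and intervals are at 95%. The test was checked on simulated data with independent arrays and plain means. That check does not cover the pairing of legs or the kind of average in the deposited values. P-values measure the spread between 4 muscles per group; their number limits the precision. The legs of a mouse were treated as independent.

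A gene was described in full if its unadjusted p was under 0.05, if it was among the 5 with the highest mean signal or the 3 with the largest difference. Partners of the first kind are given by averages and differences. Further genes of the family, such as *Cxcr4*, *Ackr3*, *Cxcl16* and *Xcl1*, are given in short without such a rule. Up to 4 genes of a list are named by their p. *Pf4*, *Ppbp*, *Ly6c2*, *Tnf*, *Il1b* and *Ifng* were chosen after their values were seen, as were the motifs. The fibre markers *Acta1*, *Myh4* and *Atp2a1* were named for their signal at the top of the scale. The family and the lists were chosen with earlier results of these data known. Promoters were aligned with Biopython 1.88 (match 2, mismatch -2, gap -6 and -1), taking the first window listed per gene. Of the 60 genes 1 is counted but not reported here by name or drawn. In the T cell list *Trac* was not matched. Alternatives were plain variances, a trend with robust fitting, unequal variances, a filter on dim probe sets, the lowest probe set of a gene, centring, a 1.5-fold threshold and expression in both groups.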

Additional observations from a re-analysis of the deposited data

How the results depend on the processing

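*Ccr2* kept its direction and its call at 2-fold in all alternatives, with an unadjusted p of at most 0.00409. Its adjusted p ranged from 0.0358 to 0.414. The number of genes of the family with an adjusted p under 0.05 was 0 as reported and 1 with a trend and robust fitting (adjusted p of *Ccr2* 0.0358) and 1 with the filter on dim probe sets (0.0455), where fewer probe sets were tested. *Ccr2* passes that filter by its mean over both groups, while its scramble average of 5.46 lies under the limit of 5.715, so its own difference decides that it is kept and that value is no support for the call. At 1.5-fold in place of 2-fold, 4 genes were called higher and 2 lower. With a trend and robust fitting, 3 genes in place of 6 were lower at an unadjusted p under 0.05, since *Ackr1*, *Ccl24* and *Cxcl11* were lost. The number of lower genes was 4 without moderation, with unequal variances, with the filter on dim probe sets and with centring. The cause of these changes was not tested. Without moderation 5, and with unequal variances 4, genes of the pathway lists were higher in place of 8, and the cause was not tested. *Ccl6*, *Cxcl14*, *Ccl17* and *Cxcr5* passed in every alternative that tested them. *Ccl9* and *Ccr8* were lost without moderation and with unequal variances. *Cxcl11* passed in 2 of 7 alternatives, which were the 2 that could not change its p, and was lost in all others. Centring moved differences by 0.01 and lost *Ackr1* and *Cxcl11*. No difference of a gene described in full changed sign. Expression in both groups as a condition was added after the data were seen and changed none of these calls. No paired analysis was possible because only group summaries were used here, and for the same reason no array was left out and no other normalization was run. The 7 genes under the 10th percentile of signal leave little room for a lower value.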
